A study of Homo sapiens with 30 samples.

Results

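The ER glycosylation machinery is a set of 38 genes for the enzymes and complex subunits that attach sugars to proteins in the endoplasmic reticulum (ER), out of 60664 genes counted. Members were taken by gene symbol from a list of names. The class was selected on measured values, namely the gain of granule enrichment with arsenite seen for POFUT1 and DPY19L1, so for these genes that gain and its parts are described here and not tested. All 38 were found in the count table and all 38 passed the low-count filter of every fit.

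In the ER membrane a glycan is built on the lipid dolichol by the ALG enzymes and moved as a block onto asparagine residues of nascent proteins by the oligosaccharyltransferase complex. Glucosidases and the UGGT sensors then trim and re-tag the glycan while the protein folds, and separate ER enzymes add O-linked mannose, O-linked fucose or C-linked mannose. The mRNAs of membrane and lumenal ER proteins are generally translated on ER-bound ribosomes, and whether each member's protein is of this kind was not checked. Stress granules are cytoplasmic assemblies of RNA and protein that form when translation initiation stops.

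RNA was sequenced in 30 libraries from derivatives of Flp-In T-REx HEK293, a human embryonic kidney line with a docking site for a tetracycline-inducible transgene. The 2 cell lines carry TIA1a fused to GFP, either in its wild-type form (WT) or in the mutant form linked to Welander distal myopathy (WDM), which weakens the hands and feet of adults. TIA1 binds RNA and is a core component of stress granules. Cytosol RNA came from cells of each line that were untreated, given tetracycline, or given tetracycline and 0.5 mM sodium arsenite for 60 min. The granule fraction, a high-speed pellet captured through GFP, came from cells of each line given tetracycline with or without arsenite. Each of the 10 groups had 3 libraries. Both lines carry the transgene in every group, each genotype is a single line, and no parental line with tetracycline was analysed here, so effects of the drug and of the induced protein cannot be told apart. The labels do not say whether replicates were separate cultures, so p-values measure the spread between these libraries, which may be technical. In bulk RNA, fewer cells and less RNA per cell cannot be told apart.

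Total counts ran from 5906167 to 27419145 per library, and members took 16870 to 96833 of them. The target gene TIA1 had 3 counts over all 30 libraries and therefore could not check the line labels. Epithelial and kidney genes fixed as markers of HEK293 summed to 278 to 474 CPM (counts scaled to a fixed library total) in cytosol, while markers of other cell types summed to at most 6.97 CPM in any library. In untreated WT cytosol KRT8, KRT18 and EPCAM averaged 158, 128 and 125 CPM and made up most of the first sum. CDH1 averaged 9.78, PAX2 2.98 and LHX1 1.81 CPM there. Of the other cell types PTPRC, MYOD1 and ALB were at or near 0, while COL1A1 averaged 2.26 CPM. The kidney genes PAX2 and LHX1 thus stood near the level of COL1A1, and the sum reflects epithelial genes. Nuclear RNAs summed to 2275 to 3655 CPM in granule libraries against 307 to 985 CPM in cytosol libraries. NEAT1 made up most of the granule sum, with group means of 1544 to 2283 CPM. In WT, MALAT1 went from 221 CPM in cytosol to 817 in granules with tetracycline, and from 350 to 458 with arsenite. In WT with tetracycline KCNQ1OT1 had 8.49 CPM in cytosol and 105 in granules, and SNHG1 had 93.9 and 95.1. With arsenite SNHG1 had 147 CPM in WT cytosol and 36.4 in granules. MEG3 was near 0 in every group. Levels are given as CPM of the library total, while log2 fold changes carry TMM scaling from edgeR. A gene was called when its Benjamini-Hochberg adjusted p from edgeR's quasi-likelihood test over all genes was under 0.05.

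The coding sequences of OST4 and DPM3 are shown because these had the shortest transcripts of the set and the lowest granule levels relative to cytosol in WT cells. OST4, on chr2:27070472-27071654 (minus strand), encodes the smallest oligosaccharyltransferase subunit. DPM3, on chr1:155139891-155140595 (minus strand), encodes the subunit that tethers dolichol-phosphate mannose synthase to the membrane. Both are read from GENCODE v44 transcripts on GRCh38, 5′ to 3′, with the start and stop codons in capitals.
OST4: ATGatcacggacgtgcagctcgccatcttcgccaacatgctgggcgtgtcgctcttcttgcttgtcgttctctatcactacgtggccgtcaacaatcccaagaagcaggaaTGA
DPM3: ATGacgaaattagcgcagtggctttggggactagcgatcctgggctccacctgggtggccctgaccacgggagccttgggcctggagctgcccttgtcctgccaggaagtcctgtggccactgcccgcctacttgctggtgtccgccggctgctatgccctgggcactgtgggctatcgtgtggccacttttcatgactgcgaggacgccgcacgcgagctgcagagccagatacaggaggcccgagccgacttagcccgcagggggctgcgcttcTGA
The OST4 frame holds 38 codons and the DPM3 frame 93 codons, each with its stop.

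In untreated WT cytosol the 7 most abundant members were oligosaccharyltransferase subunits when counts were divided by the length of each gene's longest transcript. DDOST led with 232.9 CPM per kilobase, followed by RPN1 with 205.2, DAD1 with 181.1 and RPN2 with 167.3 CPM per kilobase. GANAB, a glucosidase subunit, had 76.0 CPM per kilobase and lay above the subunits TUSC3, STT3B and STT3A, the last of which had 55.8. Genes of lipid-linked glycan assembly ran from MPDU1 at 52.7 to ALG9 at 1.42 CPM per kilobase, the lowest of the set. POFUT1 had 39.0 and DPY19L1 18.5 CPM per kilobase. This order depends on the transcript used. The transcript that Ensembl marks as canonical is shorter for some members, as for DPM1 (1054 against 3004 nt) and ALG5 (1219 against 6256 nt).

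The first comparison asked how member mRNAs in cytosol changed with arsenite. In the WT line 28 of 38 members fell and 1 rose, against 15.3% of all 16670 genes called lower and 13.7% called higher. In the WDM line 21 fell and 1 rose, against 14.8% and 14.1% of all genes. The median member changed by -0.44 on the log2 scale in WT and -0.38 in WDM, while the median of all genes was -0.02 and -0.004. Without POFUT1 and DPY19L1 the counts of members that fell were 26 and 19 of 36. Lower calls in both lines numbered 20, which is 71.4% of the WT calls and 95.2% of the WDM calls. The share of all genes called lower in both lines was not computed. When libraries were scaled by their totals alone, the median of all genes moved by 0.13 in WT and 19 members were called lower there, and 18 in WDM, with no change of direction.

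All 10 oligosaccharyltransferase genes fell in both lines, by a median of 0.62 in WT and 0.54 in WDM. DDOST, a non-catalytic subunit that anchors the complex, stood at 453, 501 and 569 CPM in WT cytosol with tetracycline and at 340.3, 341 and 373 CPM with arsenite. In WDM the DDOST values were 410.5, 536 and 469 CPM before and 292, 339.7 and 338 CPM after. Every arsenite library lay below every tetracycline library in both lines, and DDOST fell by 0.67 ± 0.11 (SE, n = 3 against 3; edgeR Benjamini-Hochberg adjusted p = 0.000214) in WT and by 0.64 ± 0.11 (adjusted p = 0.000375) in WDM.

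RPN1, which helps hold the complex to the translocon, went from 464, 529 and 569.7 CPM to 357, 354 and 374 CPM in WT. In WDM it went from 422, 519 and 472 CPM to 287, 327 and 339 CPM, again with no overlap. Its fitted changes were -0.67 ± 0.10 (SE; edgeR Benjamini-Hochberg adjusted p = 0.000126) and -0.66 ± 0.10 (adjusted p = 0.000164). MAGT1, the oxidoreductase subunit of the STT3B form of the complex, showed the largest fall of the subunits in WT, from 395, 459 and 474 CPM to 291, 293 and 311 CPM. It fell by 0.71 ± 0.10 in WT (edgeR Benjamini-Hochberg adjusted p = 7.89e-05) and by 0.63 ± 0.10 in WDM (adjusted p = 0.000216). The catalytic subunits STT3A and STT3B fell by 0.63 and 0.50 in WT and by 0.48 and 0.43 in WDM. TUSC3, the alternative oxidoreductase subunit, had the smallest fall of the complex, 0.31 in WT and 0.34 in WDM.

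Among the 14 genes of lipid-linked glycan assembly, 10 fell in WT and 4 in WDM. DOLK, the kinase that makes dolichol phosphate, had 29.1, 32.1 and 37.7 CPM in WT cytosol with tetracycline and 23.0, 20.6 and 23.5 CPM with arsenite, with no overlap. It fell by 0.70 ± 0.16 in WT (edgeR Benjamini-Hochberg adjusted p = 0.00414) and had a change of -0.33 ± 0.17 in WDM (adjusted p = 0.137). ALG5, which makes the glucose donor of the pathway, fell by 0.55 in WT and was not called in WDM at -0.31. MPDU1, needed for use of the dolichol-linked donors, fell by 0.59 in WT and 0.46 in WDM, and genes on the opposite strand cover 20.0% of its exons. The MPDU1 call was lost without WT tetracycline replicate 3 in WT, and in WDM without arsenite replicates 1 or 3 or tetracycline replicates 2 or 3.

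ALG13, a subunit of the enzyme that adds the second sugar of the lipid-linked glycan, was the only member called higher, and it was so in both lines. Its WT values rose from 75.9, 51.5 and 54.1 CPM to 88.8, 82.0 and 82.4 CPM, and its WDM values from 80.03, 53.9 and 76.8 CPM to 99.9, 97.8 and 84.3 CPM. In both lines every arsenite library lay above every tetracycline library. The changes were 0.35 ± 0.12 (edgeR Benjamini-Hochberg adjusted p = 0.0397) and 0.33 ± 0.12 (adjusted p = 0.0477), and the call was lost in 6 of 12 alternative fits in WT and in 7 of 12 in WDM. Those include the fits without WT arsenite replicates 1, 2 or 3, WT tetracycline replicates 2 or 3, WDM arsenite replicates 1 or 2, and WDM tetracycline replicates 2 or 3.

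Of the 5 O- and C-glycosylation genes other than POFUT1 and DPY19L1, only DPY19L4 fell, by 0.33 in WT and 0.47 in WDM. The others were POMT1 (-0.24 and -0.23), POMT2 (-0.09 and -0.10), POFUT2 (-0.03 and -0.004) and DPY19L3 (0.00 and 0.09). DPM1, the catalytic subunit of dolichol-phosphate mannose synthase, fell by 0.36 and 0.40, and DPM3 fell by 0.58 and 0.59. MOGS, the glucosidase that makes the first cut on the transferred glycan, fell by 0.30 and 0.35, and UGGT1, the folding sensor, fell by 0.52 and 0.44. Its paralogue UGGT2 was not called, with changes of 0.09 ± 0.09 and -0.05 ± 0.09. The WT calls of DPM1 and MOGS were lost without arsenite replicate 1 or tetracycline replicates 2 or 3, and that of MOGS also without arsenite replicate 2. Their WDM calls were lost without arsenite replicate 1 or tetracycline replicate 2, and in WT the DPM3 call was lost without tetracycline replicate 3 and the DPY19L4 call without tetracycline replicate 2.

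**Figure D1:**
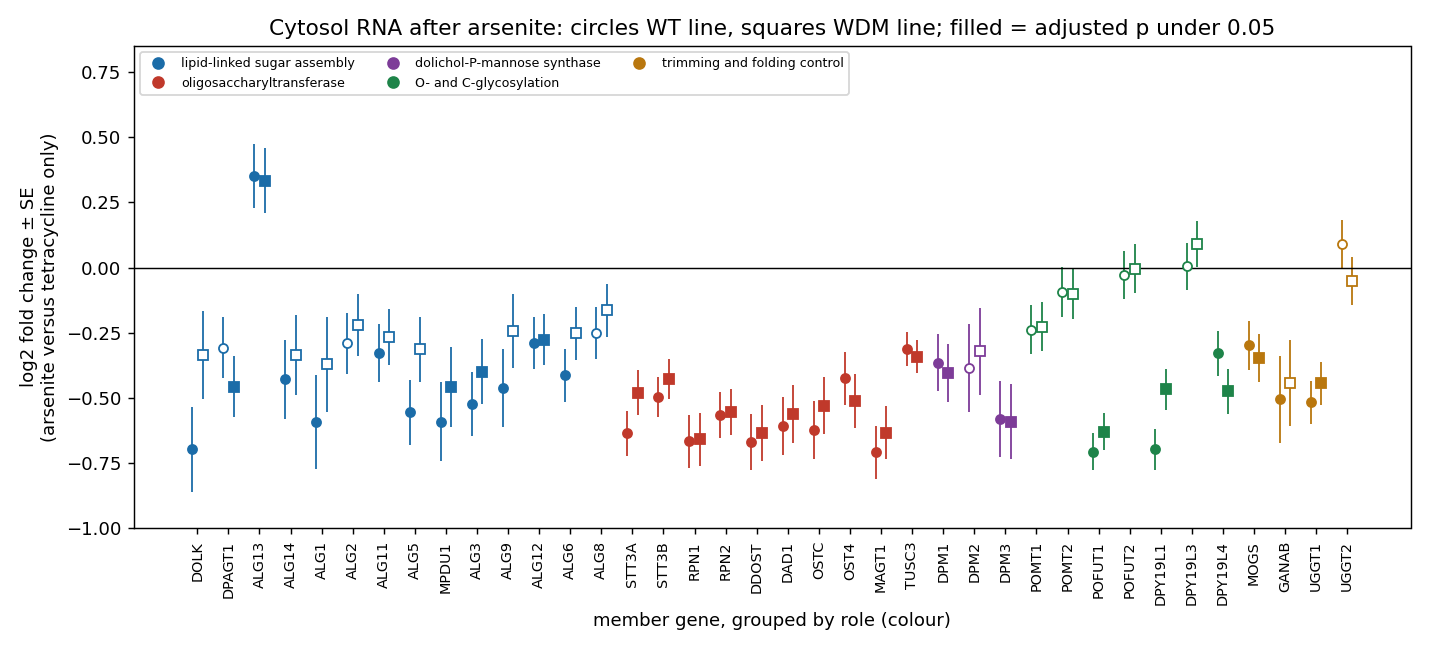
Log2 fold change of each member in cytosol RNA with arsenite against tetracycline alone, with standard errors, for the WT line (circles) and the WDM line (squares). Filled symbols passed the adjusted threshold. The oligosaccharyltransferase genes, in red, all lie below 0 and are filled in both lines, and ALG13 is the only filled symbol above 0.

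Other genes of the secretory pathway were counted from whole lists of each process. Of 28 translocon and signal peptidase genes, 23 fell and 1 rose in WT, and 18 fell in WDM, with medians of -0.51 and -0.40. Of 17 further ER N-glycan genes, 13 fell in each line, among them CANX by 0.62 and CALR by 0.64 in WT, both lectin chaperones of glycoproteins. Of 19 other O- and C-glycosylation genes of the ER, 10 fell in each line and 1 rose in WT. GPI anchor synthesis had 12 of 22 genes lower in each line, and Golgi N-glycan processing 10 of 20. Of 17 cytosolic sugar-donor enzymes, 1 fell in each line, with 2 higher in WT and 1 in WDM, and medians of -0.13 and -0.11. Of 18 unfolded-protein response genes, 12 fell and 2 rose in WT, and 11 fell and 2 rose in WDM. The 2 that rose in WT were DDIT3, a stress-induced transcription factor, by 0.59 and HERPUD1, an ER degradation factor, by 0.35, while HYOU1, an ER chaperone, fell by 0.77.

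**Figure D2:**
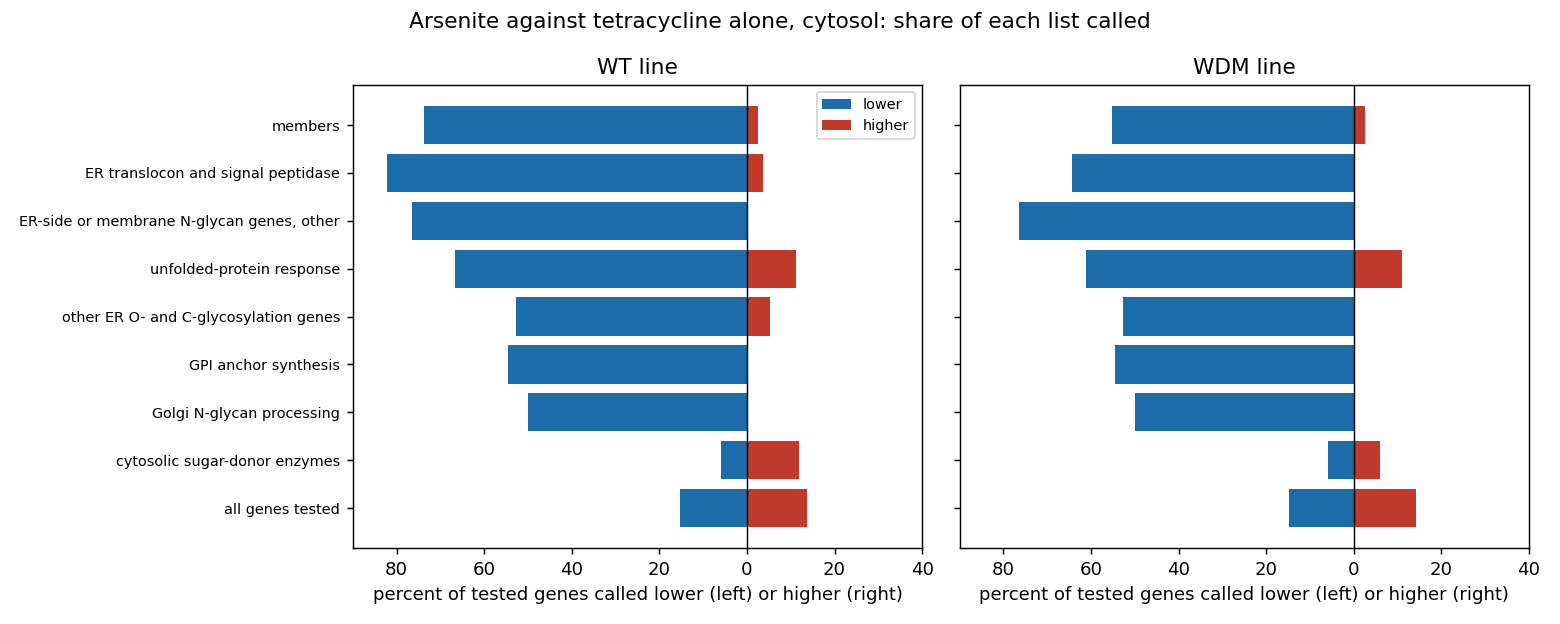
Percent of tested genes in each list called lower (left, blue) or higher (right, red) in cytosol with arsenite, for each line. Members had 28 of 38 lower in WT and 21 of 38 in WDM, the ER lists were mostly lower as well, and cytosolic sugar-donor enzymes lay nearer to all genes tested.

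Several measures moved with the arsenite groups. Nuclear RNAs summed to 590, 307 and 307 CPM in WT cytosol with tetracycline and to 675 to 737 CPM with arsenite. In WDM cytosol they summed to 423 to 731 CPM and then to 713 to 985 CPM. WT tetracycline replicate 1 stood apart from replicates 2 and 3 in this sum. The part of these RNAs in the result was not tested. Without WT tetracycline replicate 3 the number of members called in WT was 18, against 29 with all libraries. In WDM the number called ran from 16 to 28 when a library was left out, against 22. Across 12 alternative fits a lower or higher call held in every fit for 17 members in WT and 16 in WDM, and none changed sign.

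Promoters of the members were searched for the binding elements of the unfolded-protein response, on both strands, from 250 bases before to 50 after the gene start in RefSeq (GRCh38.p14). ERSE, the letters CCAAT and CCACG with 9 bases between them, was found in 1 of 33 member promoters, that of ALG12, and in 0.0806% of 27305 promoters. ERSE-II, the letters ATTGG and CCACG with 1 base between them, was found in 0 of 33 and in 0.0549% of all promoters, and UPRE, the letters TGACG followed by TGG, in 0 of 33 and in 0.795% of all. The ALG12 promoter, chr22:49918389-49918688 on the minus strand, is shown with the matching stretch in capitals. The match starts 134 bases before the gene start, on the strand of ALG12, the mannosyltransferase that adds a late mannose to the lipid-linked glycan.
ALG12: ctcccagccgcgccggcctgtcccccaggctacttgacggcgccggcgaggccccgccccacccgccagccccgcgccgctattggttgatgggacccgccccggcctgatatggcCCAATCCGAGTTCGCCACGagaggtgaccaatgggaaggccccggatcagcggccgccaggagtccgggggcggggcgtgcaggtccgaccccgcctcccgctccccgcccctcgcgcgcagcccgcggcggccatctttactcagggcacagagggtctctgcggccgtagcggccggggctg
ALG12 fell by 0.29 in WT and 0.28 in WDM cytosol with arsenite. Its call was lost without any WT arsenite library, WT tetracycline replicates 2 or 3, WDM arsenite replicates 1 or 3, or WDM tetracycline replicates 2 or 3. CRELD2, an ER stress gene whose exons overlap those of ALG12 on the opposite strand, fell by 0.40 and 0.44. Genes on the opposite strand cover 42.3% of the ALG12 exons, and the strand setting of the counting is not given in the sources used here.

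The second comparison set the granule fraction against cytosol within each line and treatment. Most members were depleted from granules. In WT cells with tetracycline 30 of 38 were lower in granules and 5 higher, against 36.2% and 39.5% of all 18141 genes, and the median member stood at -1.21 against 0.07 for all genes. In WDM cells with tetracycline 27 were lower and 4 higher, against 35.3% and 35.8%, with medians of -1.08 and 0.02. With arsenite, 24 were lower and 7 higher in WT, against 35.5% and 35.0%, and 26 lower and 6 higher in WDM, against 35.7% and 36.3%. The medians with arsenite were -0.93 in WT and -0.85 in WDM, against 0.05 and 0.06 for all genes. The gain of POFUT1 and DPY19L1 chose the list, which favours lower values of these genes with tetracycline alone and higher values with arsenite. With tetracycline, 28 of the other 36 members were lower and 5 higher in WT. In WDM 26 were lower and 4 higher, and the medians were -1.26 in WT and -1.11 in WDM. With arsenite, 24 of these 36 were lower and 5 higher in WT, and 26 lower and 4 higher in WDM, with medians of -0.95 and -0.90. In all 4 comparisons 23 members were lower, and ALG11, ALG13 and UGGT2 were higher. The share of all genes called the same way in all 4 was not computed, so nothing is read from these joint counts.

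Lists of related genes were lower in granules as well. In WT cells with tetracycline 24 of 28 translocon and signal peptidase genes were lower, with a median of -2.11, and 15 of 18 unfolded-protein response genes, with a median of -1.47. Of 17 cytosolic sugar-donor enzymes 12 were lower (median -0.72), and of 20 Golgi N-glycan genes 7 were lower and 8 higher (median 0.01). The HEK293 markers were lower for 4 of 6 genes, and their sums were 86.4 to 146 CPM in granules. The part of these shared differences in the members' values was not tested.

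The smallest transcripts were the most depleted. OST4 had 54.0, 63.3 and 57.6 CPM in WT cytosol with tetracycline and 5.76, 5.00 and 6.12 CPM in the granules of those cells. Its log2 enrichment was -3.40 ± 0.20 (SE; edgeR Benjamini-Hochberg adjusted p = 3.89e-14) there, and -3.35, -3.06 and -3.55 in WT with arsenite, WDM with tetracycline and WDM with arsenite. AGBL5 covers 25.2% of the OST4 exons on the opposite strand, so reads of these genes may not be told apart. DPM3 had 14.5, 15.3 and 18.4 CPM in WT cytosol and 0.508, 0.625 and 1.47 CPM in granules, the lowest of these being 3 counts, the floor that a count of 0 allows. Its enrichment was -3.99 ± 0.30 in WT with tetracycline (edgeR Benjamini-Hochberg adjusted p = 1.12e-12) and ranged from -3.55 to -2.76 in the other groups. DAD1, a small oligosaccharyltransferase subunit, had 123, 142 and 151 CPM in WT cytosol with tetracycline and 17.4, 13.9 and 19.1 CPM in granules. Its enrichment was -3.08, -3.11, -2.57 and -3.29 in the same order of groups.

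Of the oligosaccharyltransferase genes, 9 of 10 were lower in granules in every comparison, with group medians from -2.16 to -1.47. The exception was TUSC3, which was called in none of them and had log2 enrichments between -0.20 and 0.17. All 3 subunits of dolichol-phosphate mannose synthase were lower in every comparison.

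ALG13 was the most enriched member in cells without arsenite. Its WT values were 75.9, 51.5 and 54.1 CPM in cytosol and 149, 167 and 216 CPM in granules, and its enrichment was 1.52 ± 0.16 (edgeR Benjamini-Hochberg adjusted p = 6.78e-10). For WDM the value was 1.33 ± 0.15 (adjusted p = 1.14e-08). UGGT2 rose from 124, 119.8 and 108 CPM in WT cytosol to 273, 243 and 337 CPM in granules, an enrichment of 1.24 ± 0.14 (edgeR Benjamini-Hochberg adjusted p = 4.36e-09), and reached 1.18 in WDM. ALG11, a mannosyltransferase on the cytosolic face of the ER, had smaller values of 0.41 and 0.37. Its call is uncertain, since UTP14C covers 35.2% of its exons on the same strand. It was lost without WT tetracycline replicate 2 in cytosol or 3 in granules, and without WDM tetracycline replicates 1 or 2 in cytosol or 1 in granules. In WDM with arsenite the ALG11 call was lost without cytosol replicates 1 or 3 or granule replicate 2, the ALG13 call without cytosol replicate 3 or granule replicate 2, and the UGGT2 call without granule replicate 1.

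Granule enrichment went with transcript length among the members. Spearman's rho between enrichment and the longest transcript of each gene was 0.73, 0.70, 0.77 and 0.71 over the 38 members in WT with tetracycline, WT with arsenite, WDM with tetracycline and WDM with arsenite. Over the 18092 genes with a length the values were 0.22, 0.35, 0.24 and 0.28. These are descriptions across genes of the same libraries and carry no p. The 10 members with transcripts under 2500 nt were all lower in granules in WT and WDM with tetracycline and in WDM with arsenite, and 9 of them in WT with arsenite. Among the 13 members of 5000 nt or longer, 9, 5, 7 and 5 were lower in order of WT with tetracycline, WT with arsenite, WDM with tetracycline and WDM with arsenite. All these lengths are of the longest annotated transcript, which can differ from the one that Ensembl marks as canonical. In this class ALG5 has 6256 against 1219 nt, ALG1 5967 against 3900 nt and POMT1 5233 against 3057 nt. Canonical lengths were not tried. After the length trend of all genes was subtracted, the median member stood at -1.29, -0.78, -1.08 and -0.88, against medians for all genes between -0.09 and -0.002.

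**Figure D3:**
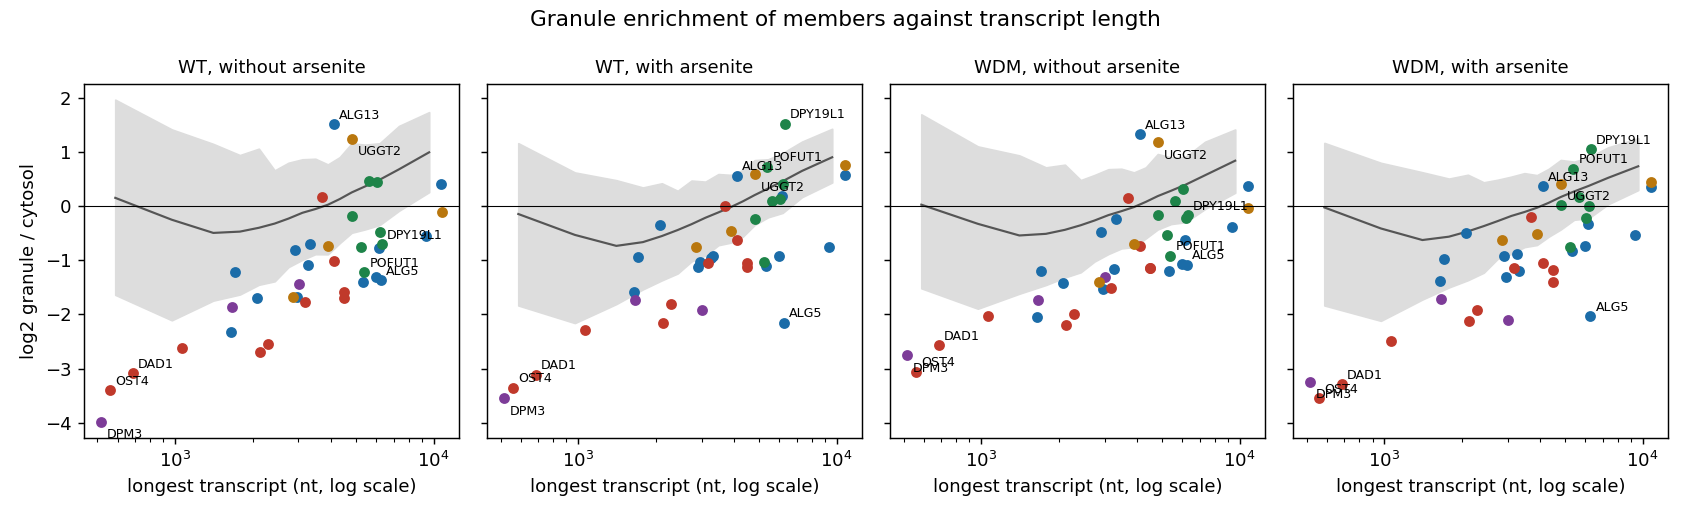
Granule enrichment (log2 granule over cytosol) of each member against its longest transcript in nucleotides on a log scale, for each line without and with arsenite. The line is a lowess trend over all genes, and the shaded band is their middle range in length bins. Points are coloured by role as in the scatter of enrichment without and with arsenite. DPM3, OST4 and DAD1 lie at the lower left of every panel, and most members lie under the trend.

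The third comparison asked whether arsenite changed granule enrichment, which is the arsenite change in granules minus that in cytosol. It and the comparisons in each fraction share their tetracycline libraries. POFUT1 and DPY19L1 were the genes that prompted the list. POFUT1, on chr20:32207880-32238658 (plus strand), adds O-linked fucose to EGF repeats, for example of Notch receptors. In WT its granule level went from 113, 109 and 99.8 CPM to 265, 245 and 295 CPM, and its cytosol level from 246, 224 and 255 CPM to 168, 155 and 166 CPM. In WDM it went from 77.5, 92.8 and 90.7 CPM to 175, 196 and 200.2 CPM in granules and from 155, 164 and 174 CPM to 114, 113 and 112 CPM in cytosol. In each line and fraction the groups did not overlap, and the change of enrichment was 1.94 ± 0.18 in WT and 1.60 ± 0.18 in WDM.

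DPY19L1, on chr7:34928876-35038271 (minus strand), belongs to the family of C-mannosyltransferases. Its granule level in WT went from 85.2, 76.1 and 87.8 CPM to 321, 215 and 225 CPM, and in WDM from 96.1, 110.2 and 111 CPM to 171, 208 and 215 CPM. Its cytosol level went from 131, 134 and 129 CPM to 88.4, 89.6 and 89.0 CPM in WT and from 111, 117 and 127 CPM to 91.8, 89.2 and 93.0 CPM in WDM. None of these groups overlapped, and enrichment changed by 2.23 ± 0.21 in WT and 1.22 ± 0.21 in WDM. Its relatives had smaller values, with DPY19L4 at 0.90 and 0.23 and DPY19L3 at -0.31 and -0.53.

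The other 36 members changed in both directions. In WT 10 were called with higher and 3 with lower enrichment, against 12.0% and 19.4% of all genes. In WDM 2 were called higher and 7 lower, against 7.66% and 16.5%. Their median change was 0.27 in WT and 0.01 in WDM, beside -0.21 and -0.17 for all genes. The rule that chose the list used this contrast, so nothing is read from these counts. DOLK and MOGS were called higher in both lines, and ALG13, ALG5 and UGGT2 lower in both. The share of all genes called the same way in both lines was not computed.

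By role, 4 genes of lipid-linked glycan assembly were called higher in WT and 1 in WDM, with 2 and 3 lower. Of the oligosaccharyltransferase genes, RPN1, RPN2 and MAGT1 were called higher in WT with changes of 0.73, 0.71 and 0.65, and had 0.07, 0.37 and -0.02 in WDM. DAD1 was called lower in WDM at -0.71 and had -0.03 in WT. UGGT1 was called higher in WT at 0.87 and had 0.48 in WDM.

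**Figure D4:**
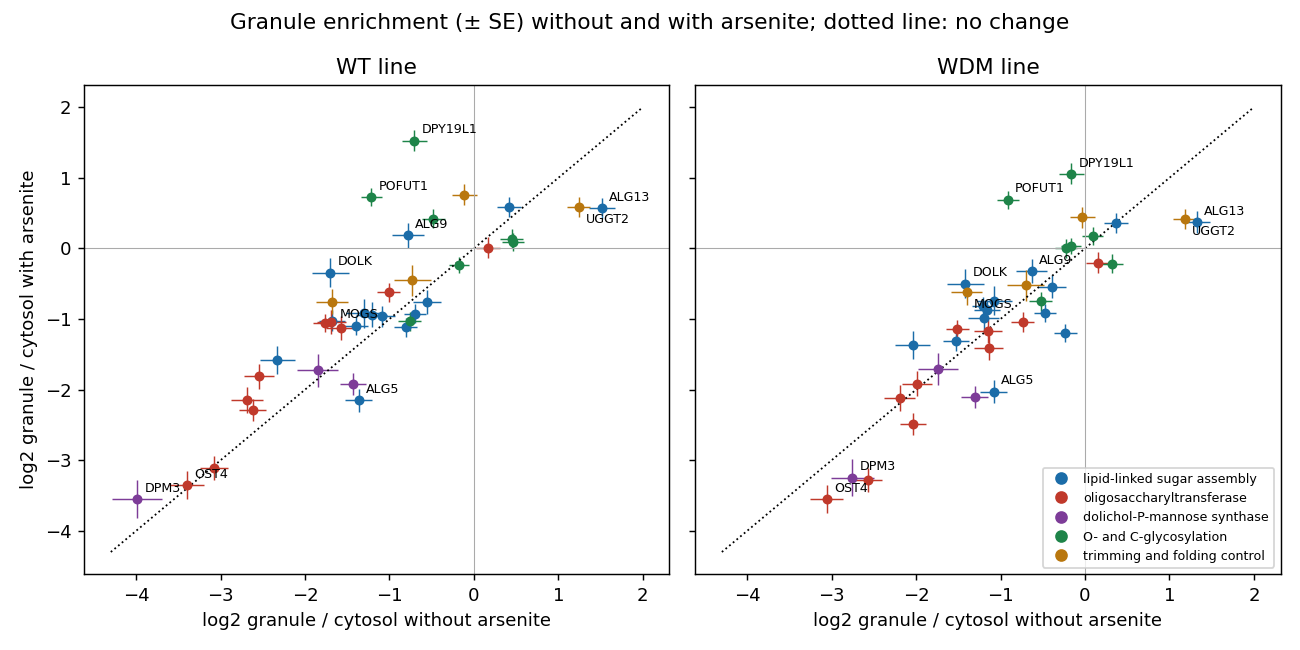
Granule enrichment of each member (log2, with standard errors) without arsenite on the horizontal axis and with arsenite on the vertical axis, for each line, coloured by role. Points on the dotted line did not change. DPY19L1 and POFUT1 lie highest above it, DOLK and MOGS also lie above it, and ALG13, UGGT2 and ALG5 lie below it.

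The granule fraction alone gave the fourth comparison, arsenite against tetracycline. In WT 8 members were higher and 9 lower, against 16.5% and 14.1% of 18366 genes. In WDM 4 were higher and 16 lower, against 18.7% and 17.7%. Without POFUT1 and DPY19L1 the higher counts were 6 and 2 of 36. 7SL RNA, the RNA of the particle that brings ribosomes to the ER, went from 210 to 705 CPM in WT granules to 86.9 to 118 CPM with arsenite, and from 367 to 474 CPM to 76.5 to 111 CPM in WDM. Mitochondrial reads went from 0.197 to 0.433% of counts to 0.0536 to 0.145% in WT granules, while the WDM groups overlapped. The part of these shifts in the members' values was not tested. DOLK, on chr9:128945530-128947603 (minus strand), rose from 10.8, 10.2 and 10.3 CPM to 15.1, 17.6 and 20.1 CPM in WT, and from 5.85, 9.28 and 8.08 CPM to 9.56, 17.1 and 12.4 CPM in WDM. Its changes were 0.77 ± 0.22 (edgeR Benjamini-Hochberg adjusted p = 0.00962) and 0.68 ± 0.22 (adjusted p = 0.0185), with no overlap of the groups. These calls were lost without WT arsenite replicate 3 or WT tetracycline replicate 3, and without WDM arsenite replicate 2 or WDM tetracycline replicate 1.

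MOGS, on chr2:74461057-74465410 (minus strand), rose from 26.9, 31.1 and 26.7 CPM to 37.8, 46.7 and 55.4 CPM in WT granules. In WDM granules it rose from 21.0, 42.5 and 35.3 CPM to 47.4, 46.5 and 57.1 CPM. The groups did not overlap in either line, and the changes were 0.73 ± 0.20 (edgeR Benjamini-Hochberg adjusted p = 0.00805) and 0.53 ± 0.20 (adjusted p = 0.0397). The WT call was lost without arsenite replicate 3 or tetracycline replicate 3, and the WDM call without arsenite replicates 2 or 3 or tetracycline replicates 1 or 3.

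ALG5 fell most in WT granules, from 33.7, 29.3 and 44.9 CPM to 14.2, 16.7 and 14.8 CPM, and in WDM from 43.8, 29.7 and 33.4 CPM to 18.1, 16.2 and 14.9 CPM. The arsenite libraries all lay below the others, and the changes were -1.23 ± 0.18 (edgeR Benjamini-Hochberg adjusted p = 1.99e-05) and -1.18 ± 0.18 (adjusted p = 1.34e-05). ALG13, ALG6, ALG8, DAD1, DPM1 and UGGT2 were also called lower in both lines. How many of all genes were lower in both lines was not computed, so nothing is read from this overlap. ALG6, which adds a glucose to the lipid-linked glycan, fell by 0.53 in WT and by 1.14 in WDM. DPM1 went from 49.8, 36.2 and 59.1 CPM to 31.3, 29.9 and 24.4 CPM in WT granules, without overlap, a fall of 0.74 ± 0.18 (edgeR Benjamini-Hochberg adjusted p = 0.00254). DAD1 went from 13.7, 20.4 and 19.2 CPM to 8.39, 9.02 and 7.33 CPM in WDM granules, also without overlap, a fall of 1.18 ± 0.19 (edgeR Benjamini-Hochberg adjusted p = 3.88e-05). In WT the calls of ALG13, ALG6 and UGGT2 were lost without arsenite replicate 3 or tetracycline replicate 3. The number of members called in WT granules, 17 with all libraries, was 5 without tetracycline replicate 3, 6 without arsenite replicate 3 and 10 without arsenite replicate 1.

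**Figure D5:**
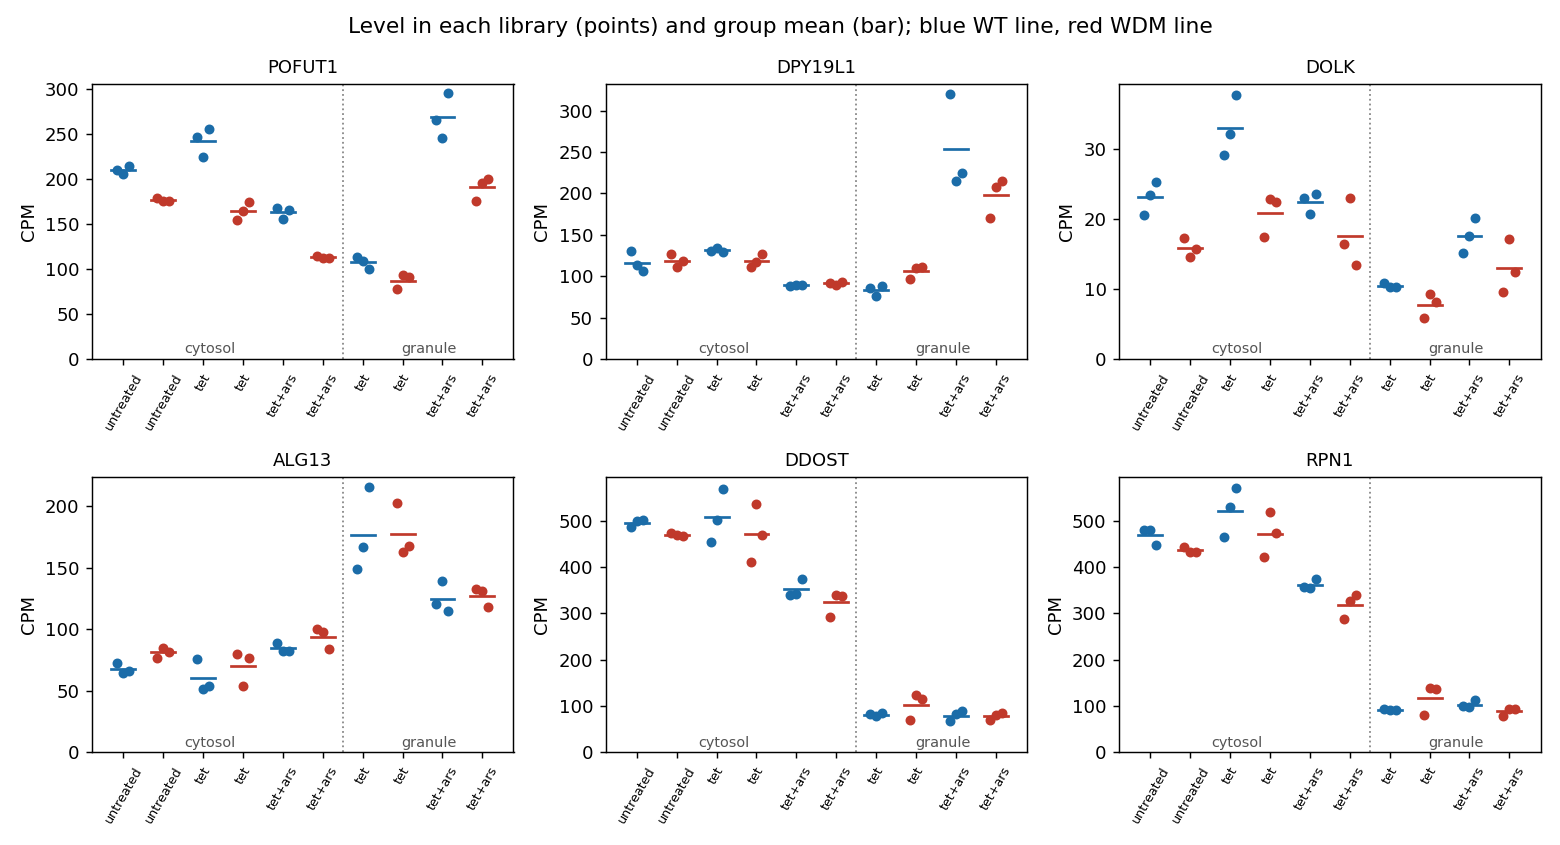
CPM of 6 members in each of the 30 libraries (points) with the mean of each group (bars), in WT (blue) and WDM (red). POFUT1 and DPY19L1 fall in cytosol and rise in granules with arsenite, DOLK is higher in granules with arsenite, ALG13 is higher in granules than in cytosol, and every granule library of DDOST and RPN1 lies below every cytosol library.

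Tetracycline alone changed few members in cytosol. In WT, POFUT1 rose from 210.1, 205 and 214 CPM to 246, 224 and 255 CPM, a change of 0.25 ± 0.07. It was called, but its tetracycline libraries are part of the gain that chose the list, so no p is given. POMT1, a protein O-mannosyltransferase, rose from 94.0, 97.7 and 99.5 CPM to 114, 118 and 129 CPM, a change of 0.35 ± 0.09 (edgeR Benjamini-Hochberg adjusted p = 0.0362). These 2 of 38 stand beside 2.93% of all genes called higher and 2.39% called lower. Without POFUT1 and DPY19L1 the count was 1 of 36. Without WT tetracycline replicate 1 the number called was 10, and it was 0 without any other library of these groups. In WDM edgeR called 0 members, against 3.07% of all genes higher and 3.23% lower, and DESeq2 called 0. At an unadjusted p under 0.05 edgeR had 6 members there, beside 3533 of all 16670 genes.

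The lines differed in a small group of members, all but 2 of them lower in WDM. In untreated cytosol 8 were lower and 0 higher, against 5.60% and 4.19% of all genes. With tetracycline 9 were lower, against 6.80%, and 0 higher, against 5.79%, and with arsenite 5 were lower and 1, ALG9, higher, against 5.37% and 4.98%. Another gene on the same strand covers 24.2% of the ALG9 exons. Without POFUT1 and DPY19L1 the lower counts were 7, 8 and 4 of 36 in untreated, tetracycline and arsenite cytosol. DPM1, POFUT1, RPN2 and TUSC3 were lower in all 3 comparisons, and the share of all genes lower in all 3 was not computed. TUSC3 had 269, 250.3 and 248 CPM in untreated WT and 195, 192 and 193 CPM in untreated WDM, with no overlap and a difference of -0.44 ± 0.06 (edgeR Benjamini-Hochberg adjusted p = 8.19e-05). RPN2 had 539.6, 525 and 524 CPM in untreated WT and 449.8, 436 and 436 CPM in untreated WDM, a difference of -0.30 ± 0.09 (edgeR Benjamini-Hochberg adjusted p = 0.0307), which reached -0.58 with tetracycline and -0.57 with arsenite.

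With tetracycline, POFUT1 was lower in WDM by 0.61 ± 0.07, given without a p because these libraries are part of the gain that chose the list. DPM1 was lower by 0.61 ± 0.11 (edgeR Benjamini-Hochberg adjusted p = 0.000732). The genes of 3 of these 4 members lie on chromosome 20 beyond 10 Mb, where 16.1%, 39.7% and 43.7% of 348 other genes were lower in WDM in untreated, tetracycline and arsenite cytosol. TUSC3 lies on chromosome 8, and 20 of 45 other genes within 5 Mb of it were lower in each of the 3 comparisons. The largest differences in untreated cells were those of MPDU1 and DOLK. MPDU1 had 86.6, 87.2 and 86.3 CPM in untreated WT and 57.1, 58.6 and 56.0 CPM in untreated WDM, a difference of -0.63 ± 0.15 (edgeR Benjamini-Hochberg adjusted p = 0.0113). DOLK had 20.5, 23.4 and 25.3 CPM in untreated WT and 17.2, 14.5 and 15.7 CPM in untreated WDM, a difference of -0.58 ± 0.17 (edgeR Benjamini-Hochberg adjusted p = 0.0355). Neither pair of groups overlapped, and with tetracycline DOLK was lower by 0.70 and MPDU1 by 0.51. The untreated DOLK call was lost without any WDM library or WT replicates 2 or 3, and the tetracycline MPDU1 call without WDM replicates 1 or 3 or WT replicates 2 or 3.

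Several of these counts rested on single libraries. The untreated count of 8 was 2 without WDM replicate 2 and 3 or 4 without each of the other 5 libraries. The tetracycline count was 20 without WT replicate 1 and 5 without WDM replicate 1, WT replicate 2 or WT replicate 3. The arsenite count was 11 without WDM replicate 2. TUSC3 kept its call in all 12 alternative fits of each cytosol comparison, while RPN2 and DPM1 in untreated cells lost theirs in 7 and 6 of 12, each fit that left out a library among them. POFUT1 in untreated cells lost its call without WDM replicate 2 or WT replicate 3.

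In granules with tetracycline 1 member, DPM3, was higher in WDM and 0 lower, against 2.60% and 2.95% of all genes. Its levels of 0.508, 0.625 and 1.47 CPM in WT and 1.29, 2.70 and 3.49 CPM in WDM overlapped, and the call (1.35 ± 0.38, edgeR Benjamini-Hochberg adjusted p = 0.0304) was lost in 5 of 12 alternative fits, 4 of them without WT replicates 1 or 2 or WDM replicates 2 or 3. The count was 3 without WDM replicate 1. With arsenite 5 were lower in WDM and 0 higher, against 3.84% and 4.11%, namely DPM1 by 0.84, TUSC3 by 0.78, RPN2 by 0.67, ALG2 by 0.59 and POFUT1 by 0.58. The count was 3 without WDM replicate 1 or without WT replicates 1 or 3, which lost POFUT1 and ALG2.

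A difference between the lines in granule enrichment was tested directly. EdgeR called 0 of 38 members without arsenite and 0 with it, against 0.00551% of all genes in each case. At an unadjusted p under 0.05 edgeR had 8 and 4 members, beside 929 and 1201 of all 18141 genes, and DESeq2 called 0. The line difference in the arsenite response was called for 0 of 38 members in cytosol and 0 of 38 in granules, with 1 and 9 at an unadjusted p under 0.05 and 0 by DESeq2. For the arsenite change of enrichment it was called for 0 of the other 36, with 6 at an unadjusted p under 0.05 and 0 by DESeq2. Over all genes, 332 of 16670 in cytosol, 2329 of 18366 in granules and 1451 of 18141 for enrichment reached that unadjusted p in edgeR. In these 3 tests of the arsenite response 0% of all genes were called. Calls above that passed in 1 line and not in the other are therefore not shown to differ between lines.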

How the data were processed

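All values come from a single table of raw gene counts. The authors deposited these counts for 60664 Ensembl genes in 30 libraries. Per the submitters' processing notes, Trimmomatic, STAR, Picard and featureCounts were used with GRCh38. Their versions, roles and the strand setting are not given in the sources used here. Symbols were those of the count table, in which 40609 genes had a name. GENCODE v44 held 60463 of the gene IDs and gave transcript lengths, exon overlaps and the coding sequences shown. The members and all gene lists were chosen with earlier results of these data known. The rule for full values was POFUT1, DPY19L1 and up to 3 called members in each direction by largest log2 change per comparison. It was not followed throughout: some such members are given by fold change alone, and others were given in full by role, or because several comparisons called them, after their values were seen.

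Counts were fitted in R 4.3.3 with edgeR 4.0.16 (TMM, filterByExpr with a minimum count of 10 and total of 15, quasi-likelihood test, Benjamini-Hochberg adjustment over all genes at 0.05), separately for 18 cytosol libraries, 12 granule libraries and the 24 libraries with tetracycline. Length trends were lowess fits with a span of 0.3. A floor of 3 counts equals 0.109 to 0.508 CPM per library, which covers counting error only. On simulated counts for the WT arsenite comparison in cytosol, 96% of changed genes were recovered at a log2 change of 1 and 100% at 2. For the WT arsenite change of enrichment it was 76% and 98%. The simulated spread between replicates was 0.1 as a coefficient of variation. The fits gave 0.103 for cytosol and 0.145 for the 24 libraries with tetracycline, so 76% and 98% may be too high. Smaller changes were not simulated. No member changed by as much as 1 in cytosol with arsenite, so recovery of changes as small as those of the members is not known. Replicates of a group differed beyond sampling noise, with chi-square per degree of freedom of 1.63 to 40.7, so none was counted as a copy. Same-numbered libraries deviated together, with every correlation over 0.1, in 5 comparisons: granule against cytosol with arsenite in WT (0.119 to 0.46) and WDM (0.42 to 0.807), arsenite in WT cytosol (0.117 to 0.55) and WDM granules (0.225 to 0.59), and tetracycline in WT cytosol (0.13 to 0.335). The pairing rests on shared replicate numbers and these correlations. For arsenite in WDM granules and tetracycline in WT cytosol, the same-numbered library was not always the best correlated, so pairs are uncertain there. Standard errors and p-values in the Results come from fits without pairing. Alternatives were DESeq2 1.42.0, other size factors, no filter, the compared groups alone, a replicate block and leaving out each library.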

Additional observations from a re-analysis of the deposited data

Results flagged for a closer look

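By edgeR's interaction test, 5 members other than POFUT1 and DPY19L1 were called for a change of granule enrichment in the same direction in both lines. How many of all genes were called so was not computed. DOLK changed its granule enrichment by 1.36 on the log2 scale in WT and 0.916 in WDM. MOGS changed by 0.926 and 0.783. ALG13 changed by -0.95 and -0.956, ALG5 by -0.788 and -0.95, and UGGT2 by -0.651 and -0.763. The WDM calls of DOLK and MOGS were lost in 7 and 6 of 18 alternative fits, those without WDM cytosol arsenite replicate 1, cytosol tetracycline replicates 2 or 3 or granule tetracycline replicate 1 among them for both. DOLK also lost it without cytosol arsenite replicate 3 or granule arsenite replicate 2, and MOGS without granule arsenite replicate 3. The WT calls of ALG5 and UGGT2 were lost without granule tetracycline replicate 3 and with no low-count filter. The list was chosen on this contrast, so these calls and values are a description and nothing is read from them.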

How the results depend on the processing

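No member call changed sign in any alternative. With no low-count filter the WT median change of enrichment was 0.476 and the WT arsenite median of granule against cytosol -0.83. After subtracting the length trend these were 0.48 and -0.781, and the WDM change was 0.153. With no filter, members called were 10 for arsenite in WT granules, 5 and 2 for tetracycline in WT and WDM, and 4 and 2 for the lines in untreated cytosol and tetracycline granules. Fitting only the compared groups gave 0 and 2 for tetracycline in WT and WDM, and 18, 5 and 0 for the lines in untreated cytosol, tetracycline cytosol and tetracycline granules. For tetracycline in WT, DESeq2 called 6 and library size alone 1.

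Leaving out a library, the WDM median change of enrichment ran from -0.171 to 0.118 and turned below 0 in 6 fits (-0.0308, -0.041, -0.0437, -0.0617, -0.0213 and -0.171), and the WT median from 0.173 to 0.335. Medians of granule against cytosol ran from -1.27 to -1.17 and -1.03 to -0.879 in WT without and with arsenite, and from -1.17 to -0.88 and -0.947 to -0.746 in WDM. Members called ran from 9 to 13 and 6 to 10 for the change of enrichment in WT and WDM, 18 to 29 and 16 to 28 for arsenite in cytosol, 5 to 14 and 14 to 18 for arsenite in granules, 34 to 35, 30 to 32, 28 to 30 and 28 to 31 for granule against cytosol, and 0 to 10 and 0 to 0 for tetracycline. For the lines they ran from 2 to 4, 5 to 20 and 4 to 11 in cytosol and 0 to 3 and 3 to 6 in granules. All line differences in response or enrichment stayed at 0.

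With the replicate block, members called were 32 and 26 for arsenite in WT and WDM cytosol, and 15 and 20 in granules. They were 3 for tetracycline in WT, and none of these counts was over 1.5 times from the fit without the block. For granule against cytosol with arsenite they were 31 in WT and 32 in WDM, as without the block. Where numbers are shared but not paired by the correlations, the block moved the count in WDM cytosol from 22 to 26. Low members such as DPM3 in granules are limited by depth. The cause of these changes was not tested.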
